A study of Mus musculus with 35 samples.

Results

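The Brg1-deficient retina at P12 held 1080 H3K27Ac peaks that both of its replicates shared and that no peak of the wild-type P12 r1 and P14 r2 lists touched. They were taken from the 42887 peaks of the Brg1-deficient r2 list, of which they made up 2.52%, as those overlapping a peak of the Brg1-deficient r1 list by at least 1 bp and neither of these wild-type lists. The members were thus selected on H3K27Ac in these 4 lists, and H3K27Ac in them is described below without a test. Most members had no called H3K27Ac peak at birth: 271 of the 1080 overlapped a wild-type P0 H3K27Ac peak in either replicate (25.1%, against 42.5% of all r2 peaks) and 809 did not. Both shares are over all peak heights, and shares at a like height are given below. The 1080 peaks are called the deficient-only peaks from here on.

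The study profiled mouse retina by ChIP-Seq, and peak lists of 27 libraries were used: 9 for H3K27Ac, 8 for H3K4me3, 9 for H3K27me3 and 1 for Brg1. The Brg1-deficient retinae came from Chx10-Cre;Brg1 Lox/Lox mice at P12, with 2 H3K27Ac libraries, 1 H3K4me3 library and 1 H3K27me3 library. Wild-type retinae were used at P0, P12, P14 and P21, with 2 libraries per mark and stage except for H3K27Ac and H3K4me3 at P12, which had 1 each. Brg1 itself was profiled at P0, through a FLAG tag knocked into the Brg1 gene (Brg1-FLAG mice, 1 library). Chx10-Cre acts in retinal progenitor cells in a mosaic pattern, so the Brg1-deficient tissue still held cells that never lost Brg1, and the authors favoured small-eyed animals when collecting tissue, so the sampled retinae were not a random draw of the genotype. In whole retinae, a change in the number of cells of a type and a change of the mark within each cell cannot be told apart. The second wild-type list of the selection was 2 days older than the Brg1-deficient samples.

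Brg1 is the ATPase of the BAF complex, which uses the energy of ATP to move or evict nucleosomes. H3K27Ac marks active promoters and enhancers, H3K4me3 marks the start sites of active or poised genes, and H3K27me3 is laid down by Polycomb proteins over silenced genes. At P0 the mouse retina still contains dividing progenitor cells, and during the weeks that follow the late-born rods, bipolar cells and Müller glia mature. The question asked of the deficient-only peaks was whether they were P0 peaks that the wild-type retina no longer showed at P12 and P14.

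The 9 H3K27Ac lists held 17433 to 50005 peaks each, and the 4 lists of the selection 40465 to 50005. Read depth was unknown, because the lists give fold enrichment and −log10 q and no read counts. Wild-type P14 r1 and P21 r1 were short, with 17433 and 18718 peaks, and wild-type P0 r1 held 17588 against 29304 in P0 r2. A missing peak means that none passed the authors' caller in that list, not that the mark was absent. Genes were not analysed here, since no annotation of build mm9 was used. Loci are therefore given by position, and neither the retinal identity of the samples nor the loss of Brg1 was checked against marker genes.

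The deficient-only peaks were small. Their fold enrichment in Brg1-deficient r2 ran from 2.28 to 9.27 with a median of 4.01, and their length from 220 to 1985 bp with a median of 297.5 bp. The 25893 r2 peaks that were shared with Brg1-deficient r1 and both wild-type lists had a median fold of 7.31 and a median length of 840 bp. The median of −log10 q was 4.07 for the deficient-only peaks and 15.1 for the shared ones. The 4208 peaks called in Brg1-deficient r2 alone, which had no counterpart in r1 or in the wild-type lists, were of a like size, with a median fold of 3.96 and a median length of 265 bp.

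The overlapping r1 peak was higher than the r2 peak at 604 of the 1080 deficient-only peaks, and its fold ran from 2.34 to 33.2 with a median of 4.29. Both folds exceeded 5 at 48 members. At 214 members (19.8%) every overlapping r1 peak itself touched a wild-type peak, so that the absence from wild type rested on the borders of the r2 peak. The r1 peaks of these 214 members had a median fold of 4.74, against 4.15 at the other 866. The 866 members whose r1 peak was also free of wild-type peaks carried a P0 H3K27Ac peak in 25.1% of cases, the same as all 1080.

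**Figure D1:**
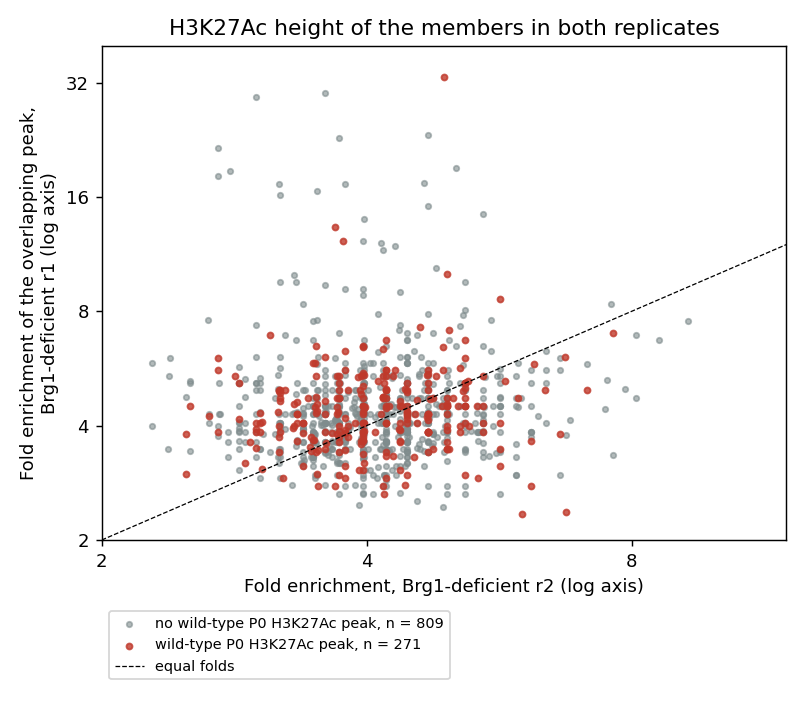
Fold enrichment of each of the 1080 deficient-only peaks in Brg1-deficient r2 (horizontal, log axis) and of the overlapping r1 peak (vertical, log axis), with the 271 that overlap a wild-type P0 H3K27Ac peak in red and the 809 that do not in grey. Most points lie below 5 in at least 1 replicate, the points far above the dashed line of equal folds reach 33.2 in r1, and red points are spread through the whole range.

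Most deficient-only peaks lay beside a wild-type peak, and such closeness was not particular to them. Of wild-type P12 r1 peaks shared with P14 r2 and in neither Brg1-deficient list, 58.7% lay under 1000 bp from a Brg1-deficient peak. The gap to the nearest peak of wild-type P12 r1 or P14 r2 had a median of 480.5 bp, against 658.5 bp for the peaks in r2 alone. It was under 1000 bp for 687 members (63.6%), at least 1000 but under 10000 bp for 214 (19.8%) and at least 10000 bp for 179 (16.6%). For 460 of the 687 near members, the neighbouring wild-type peak was also overlapped by a Brg1-deficient r2 peak, so that the member stood next to an acetylated site of both genotypes. For the other 227 it was not, and the peak calls of the genotypes lay side by side. The rule's edge was sharp in the same sense: 22 members lay 10 bp or less from a wild-type peak, at a median fold of 3.96, and 26 reproducible peaks with a median fold of 4.05 were kept out by an overlap of 10 bp or less.

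Acetylation at birth was examined in the wild-type P0 libraries, which the selection had not used. A P0 H3K27Ac peak in either replicate lay under 271 deficient-only peaks (25.1%, Wilson 95% interval 22.6 to 27.8%), against 42.5% of all Brg1-deficient r2 peaks. P0 r1 contributed 98 of them (9.07%) and P0 r2 266 (24.6%), and 93 (8.61%) had a peak in both. The corresponding shares were 47.7% and 59.4% of the shared peaks, and 2.1% and 9.0% of the peaks in r2 alone. The deficient-only peaks thus stood between these classes in each P0 library. The choice of wild-type list mattered: with the age-matched P12 r1 list alone, 3692 peaks would have been members and 37.6% of them had a P0 H3K27Ac peak, while with P14 r2 alone there would have been 1936 and 21.8%. All intervals given here cover counting error only, and neighbouring peaks are not independent.

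At a like height, the deficient-only peaks and the shared peaks had similar shares of P0 sites in the lower ranges of fold enrichment. Among peaks with an r2 fold up to 3.61, 26.7% of the 270 deficient-only peaks and 27.3% of the 1499 shared peaks had a P0 H3K27Ac peak. Between 3.61 and 4.01 the shares were 24.0% of 271 and 26.8% of 1267, and between 4.01 and 4.69 they were 22.9% of 315 and 28.0% of 2578. In the highest range, from 4.69 to 9.27, they parted, at 27.7% of 224 members (22.2 to 33.9%) and 48.2% of 10958 shared peaks (47.3 to 49.2%). The peaks in r2 alone stayed at 8.1 to 12.5% in the 4 ranges. Over all r2 peaks the shares were 17.9%, 16.2%, 19.0% and 41.5% from the lowest range to the highest. The members thus lay below all r2 peaks in the highest range alone. No test was made of these differences, since the ranges were cut on a value that the selection used.

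**Figure D2:**
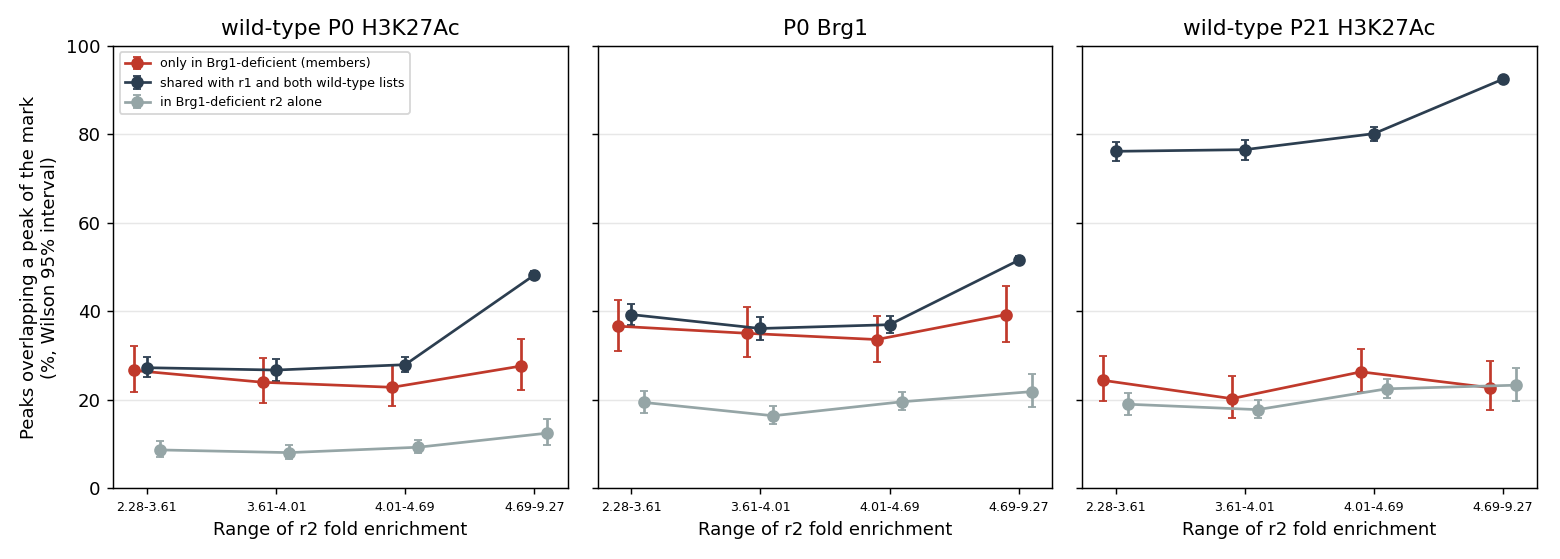
Share of Brg1-deficient r2 peaks that overlap a wild-type P0 H3K27Ac peak, a P0 Brg1 peak or a wild-type P21 H3K27Ac peak (vertical, percent, bars are Wilson 95% intervals) in 4 ranges of r2 fold enrichment (horizontal). Deficient-only peaks lie near shared peaks for P0 H3K27Ac and Brg1 up to a fold of 4.69, and near the peaks in r2 alone for P21 H3K27Ac, where they hold 20.3 to 26.3%.

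Of the 271 deficient-only peaks with a P0 peak, 203 had no H3K27Ac peak in wild-type P14 r1 or P21 either. These 203 (18.8% of all members, against 4.94% of all r2 peaks) were the sites where acetylation was seen in wild type at P0, in no later wild-type library, and in both Brg1-deficient P12 libraries. The absence from wild-type P12 r1 and P14 r2 was set by the rule, and it raises this share relative to all r2 peaks. A P0 peak with none in wild-type P14 r1 or P21 also lay under 15.6% of another 3468 r2 peaks. Those were shared with Brg1-deficient r1 and only 1 of the wild-type lists of the selection. Both P0 replicates had a peak at 74 of the 203. The P0 peaks under the members had a median fold of 5.09 in r1 and 5.13 in r2, below the 8.28 and 8.23 of P0 peaks under shared peaks.

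Seen from the P0 lists, peaks found in the Brg1-deficient retina and not in the wild-type lists of the selection were rare. P0 peaks were counted here, whether or not wild-type P14 r1 or P21 had a peak, so the set differs from the 203 members above. In P0 r2, 9165 of 29304 peaks (31.3%) touched neither wild-type list of the selection, and 205 of these 9165 (2.24%, 1.95 to 2.56%) were present in both Brg1-deficient lists. In P0 r1 the count was 108 of 1892 (5.71%, 4.75 to 6.85%). The opposite case, a P0 peak found in both wild-type lists and in neither Brg1-deficient list, occurred 230 times in P0 r2 and 55 times in P0 r1. P0 peaks in both Brg1-deficient lists and neither wild-type list therefore outnumbered the opposite ones in P0 r1 and not in P0 r2. A total of 8117 P0 r2 peaks and 1518 P0 r1 peaks were in none of the 4 lists, so most P0 peaks missing from wild type at P12 and P14 were also missing from the Brg1-deficient retina.

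The most frequent case was no wild-type peak at any stage. Of the 1080 deficient-only peaks, 618 (57.2%, 54.3 to 60.1%) had no H3K27Ac peak in any wild-type library, against 8.49% of all r2 peaks. No r2 peak that touched either wild-type list of the selection could qualify. These were the 25893 shared peaks, the 3468 with only 1 of these lists and 8238 others not in Brg1-deficient r1. The contrast with all r2 peaks was thus set by the rule. Among the 4208 peaks in r2 alone, which could qualify, the share was 71.9%. A further 259 members (24.0%) had a peak in wild-type P14 r1 or P21, against 74.4% of all r2 peaks, and 255 (23.6%) had one at P21, against 73.9%. The P21 peaks came mainly from P21 r2, with 242, while P21 r1 had 30 and P14 r1 had 8. At 67 members (6.204%) there was a peak both at P0 and at P21, against 37.4% of all r2 peaks.

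**Figure D3:**
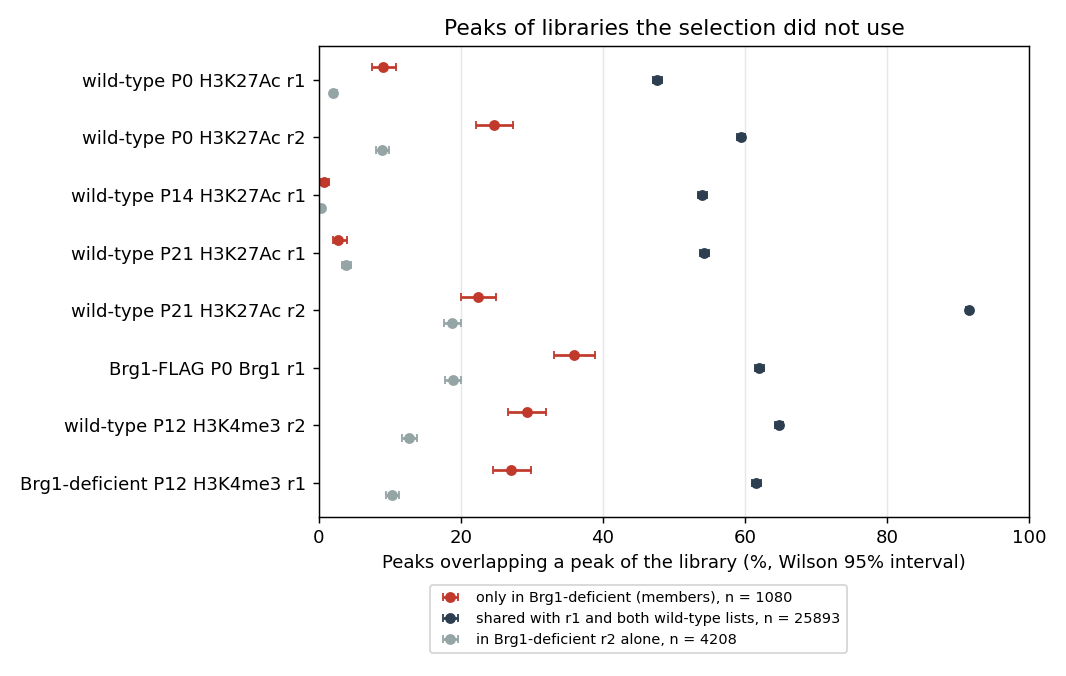
Share of Brg1-deficient r2 H3K27Ac peaks (horizontal, percent, bars are Wilson 95% intervals) that overlap a peak of each library named on the vertical axis, for the 1080 deficient-only peaks (red), the 25893 shared peaks (dark) and the 4208 peaks in r2 alone (grey). The deficient-only peaks lie between the other classes at P0, for Brg1 and for H3K4me3, reaching 35.9% for Brg1, and lie near the peaks in r2 alone at P14 and P21.

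The mirror class gave a second yardstick. In wild-type P12 r1, 4029 of 47404 peaks were shared with P14 r2 and touched neither Brg1-deficient list, and they resembled the deficient-only peaks in height and length, with a median fold of 4.05 and a median length of 291 bp. Of these wild-type-only peaks, 274 (6.80%, 6.06 to 7.62%) overlapped a P0 H3K27Ac peak, against 38.7% of all wild-type P12 r1 peaks and 25.1% of the deficient-only peaks. The P0 Brg1 share was 15.6% (14.5 to 16.7%) in the mirror class, against 43.6% of all wild-type P12 r1 peaks, and 35.9% at the deficient-only peaks. Wild-type P12 H3K4me3 lay under 9.21% of the mirror class, against 43.5% of all, and under 29.3% of the deficient-only peaks. Conversely, P21 r2 H3K27Ac lay under 51.2% of the wild-type-only peaks, against 71.5% of all wild-type P12 r1 peaks. It lay under 22.4% of the deficient-only peaks, against 72.6% of all r2 peaks. The counting intervals of the 2 classes did not overlap in any of these 4 shares. They cover counting error only, peaks are not replicates of a genotype, and no test of the differences was made. The rule did not treat the genotypes alike, because its wild-type lists came from P12 and P14 and its Brg1-deficient lists both from P12, and the part of this age difference in the P21 shares was not tested.

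Heights at P0 and at P21 were compared in the 4 wild-type libraries of these stages. Peaks were merged into regions, and log2(fold + 2.75) was tested with limma in the 24222 regions that had a peak in at least 2 of the 4 libraries. Of all regions tested, 8.3% were called higher at P0 and 24.3% lower, at an adjusted p under 0.05. At most 202 of the 1080 deficient-only peaks lay in a tested region, at most 58 in a region called higher at P0 and at most 17 in a region called lower. A member that overlapped several regions was counted once in each, here and in the counts below, so distinct members may be fewer. A member passed the filter only through libraries where its region had a peak, so these counts describe the tested members alone. In the fit with all 4 libraries, 77 members and 10.7% of regions were higher at P0 at an unadjusted p under 0.05. The calls rest on few libraries, and none held when P0 r1, P0 r2 or P21 r1 was left out. Each such fit kept a single library of 1 stage, so its counts are not given. Over all tested regions, the median log2 difference of P0 over P21 was −0.04 with all 4 libraries. It was 0.09 without P0 r1, −0.23 without P0 r2, −0.03 without P21 r1 and 0.84 without P21 r2. A region without a called peak entered with a height of 0.

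The member region with the smallest p among those higher at P0 was chr3:34548926-34550608. Its fold was 13.5 in P0 r1 and 17.2 in P0 r2, and no peak was called in either P21 library. Such a region passed the filter through the P0 libraries alone, with both P21 heights entered as 0, so its p is not given as support. The deficient-only peak in it, chr3:34549866-34550118, was low, at a fold of 3.70 in Brg1-deficient r2 and 4.29 in r1, and it lay 442 bp from a wild-type peak. It carried a P0 Brg1 peak with a fold of 11.8, H3K4me3 in both genotypes at P12, with a fold of 24.0 in Brg1-deficient and 25.3 in wild-type retinae, and an H3K27me3 domain in both genotypes at P12. A second such region, chr12:85873574-85874281, had folds of 8.92 and 10.4 at P0 and no peak at P21. Its member, chr12:85872466-85874197, was the second widest of all at 1732 bp, with a fold of 6.004 in Brg1-deficient r2 and 2.34 in r1, a Brg1 fold of 9.69 and no H3K4me3 peak. In the other direction, chr4:73903808-73905591 had no peak at P0 and folds of 5.35 and 8.23 at P21, and passed the filter through the P21 libraries alone.

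Brg1 occupied a minority of the deficient-only peaks at P0. A Brg1 peak lay under 388 of the 1080 (35.9%, 33.1 to 38.8%), against 47.8% of all r2 peaks, 62.0% of the shared peaks and 18.9% of the peaks in r2 alone. There was 1 Brg1 library, so the spread between replicates is unknown. As for P0 acetylation, the share at a given height was close to that of the shared peaks, with 36.7% and 39.3% up to a fold of 3.61, and 33.7% and 37.0% between 4.01 and 4.69. In the highest range it was 39.3% of the members and 51.6% of the shared peaks. The Brg1 peaks under members had a median fold of 5.24, against 5.83 under shared peaks.

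Brg1 and acetylation at P0 were set side by side within the deficient-only peaks. Of the 271 members with a P0 H3K27Ac peak, 210 (77.5%, 72.2 to 82.1%) also had a Brg1 peak, and of the 809 without one, 178 (22%, 19.3 to 24.99%) had it. In the shared class these shares were 86.4% and 25.9%. Members with both marks at P0 made up 19.4% of the deficient-only peaks, against 35.9% of all r2 peaks. The 178 with Brg1 and without acetylation at P0 made up 16.5%, against 11.9% of all r2 peaks. Among the 3468 r2 peaks shared with Brg1-deficient r1 and only 1 of the wild-type lists, the share was 16.4%. Brg1 had occupied these 178 member sites in the newborn retina with no acetylation called there. Acetylation was called at them in the Brg1-deficient retina at P12. At 61 members (5.65%, against 6.65%) P0 acetylation was present without a Brg1 peak.

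H3K4me3 split the deficient-only peaks into a smaller class with the mark, which is typical of promoters, and a larger class without it. An H3K4me3 peak was present at 293 members in Brg1-deficient P12 retinae (27.1%, 24.6 to 29.9%), against 44.9% of all r2 peaks. In wild-type P12 retinae it was present at 316 (29.3%), against 48.1%. In the ranges of r2 fold up to 4.69, Brg1-deficient H3K4me3 lay under 24.4%, 22.9% and 28.3% of members. All r2 peaks had 18.7%, 17.8% and 21.4% there, and shared peaks 26.5%, 28.2% and 28.6%. In the highest range the shares were 33.9% of members, 44.98% of all r2 peaks and 50.7% of shared peaks. Members thus lay below all r2 peaks only in the highest range. The other shares in this paragraph are over all heights. At 280 members (25.9%) H3K4me3 was present in both genotypes, against 44.4%. The Brg1-deficient library alone had it at 13 members (1.20%, 0.705 to 2.05%), against 0.520% of all r2 peaks, and the wild-type library alone at 36 (3.33%), against 3.66%. The remaining 751 (69.5%) had none in either genotype, against 51.4% of all r2 peaks, and 669 (61.9%) had none in any of the 8 H3K4me3 libraries, against 45.2%.

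The height of H3K4me3 was compared in the regions where both genotypes had a peak. In the 287 regions with a deficient-only peak, the median log2 ratio of Brg1-deficient to wild-type fold, after scaling to equal medians over all regions, was 0.06, with quartiles of −0.22 and 0.38. Over all 17944 regions it was 0.09, with quartiles of −0.23 and 0.39. The scaled fold was at least 2-fold higher in Brg1-deficient retinae in 6 of the 287 regions, against 3.47% of all regions, and at least 2-fold lower in 7, against 2.17%. Each genotype had 1 library, so no test was possible. The H3K4me3 peaks under members were lower than those under shared peaks, with medians of 15.6 and 35.5 in Brg1-deficient retinae and 23.4 and 52.4 in wild type. The 314 wild-type H3K4me3 peaks that held a member were somewhat wider, at a median of 1385.5 bp against 1166 bp for all.

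P0 acetylation was counted separately in the members with and without H3K4me3. Of the 280 with H3K4me3 in both genotypes, 129 (46.1%, 40.3 to 51.9%) had a P0 H3K27Ac peak and 146 (52.1%) a P0 Brg1 peak. Of the 751 without H3K4me3 in either genotype, 124 (16.5%, 14.03 to 19.3%) had a P0 H3K27Ac peak and 217 (28.9%) a Brg1 peak. Shared peaks with H3K4me3 in both genotypes had P0 acetylation in 86.9% of cases. A P0 H3K4me3 peak in both replicates lay under 312 deficient-only peaks (28.9%), against 42.6% of all r2 peaks, over all peak heights.

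Some members with H3K4me3 also lay in a domain of the Polycomb mark H3K27me3. An H3K27me3 domain of both wild-type P12 replicates covered 142 deficient-only peaks (13.1%, 11.3 to 15.3%), against 10.3% of all r2 peaks, a share near the background. Of these 142, 115 also had H3K4me3 in both genotypes. This was so for 4008 of the 4433 r2 peaks in such a domain and for 2619 of the 2686 shared ones. The co-occurrence of these marks was thus not particular to the members. P0 Brg1 lay under 104 of the 142 and P0 H3K27Ac under 76, and no background is given here for these last counts. Of the 280 members with H3K4me3 in both genotypes, 41.1% (35.5 to 46.9%) lay in such a domain, while 16.5% of the shared peaks with H3K4me3 in both genotypes did. Among peaks in r2 alone with H3K4me3 in both genotypes, 164 of 399 did. Among those shared with Brg1-deficient r1 and only 1 of the wild-type lists, 663 of 1373 did. This share was thus not particular to the members. In the Brg1-deficient H3K27me3 library, 150 members (13.9%) lay in a domain, against 11.9% of all r2 peaks. The domain was lost, that is present in both wild-type replicates and absent in the Brg1-deficient library, at 12 members (1.11%), against 0.923% of all r2 peaks, and 5 members (0.463%) had a domain in the Brg1-deficient library and in neither wild-type replicate, against 1.098%. Acetylation was thus called in retinae in which the same position was also covered by an H3K27me3 domain at 130 of the 142. This was not particular to the members, since the domain was lost at 12 of these 142 and at 396 of the 4433 r2 peaks in such a domain.

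Shares of the marks differed with distance from wild-type acetylation. The 179 deficient-only peaks at least 10000 bp from a wild-type peak carried P0 H3K27Ac in 39.7% of cases (32.8 to 47.0%), P0 Brg1 in 43.6%, H3K4me3 in both genotypes in 40.2% and a wild-type P12 H3K27me3 domain in 25.7%. The 687 members under 1000 bp had 23.1%, 36.2%, 26.2% and 11.1% in the same order. The 214 members in between had 19.2%, 28.5%, 13.1% and 9.35%. The intervals of the farthest and the nearest members were apart for P0 H3K27Ac, H3K4me3 and H3K27me3, and overlapped for Brg1. Of the 271 members with P0 H3K27Ac, 159 (58.7%) were still within 1000 bp of a wild-type peak and 71 (26.2%) were at least 10000 bp away.

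**Figure D4:**
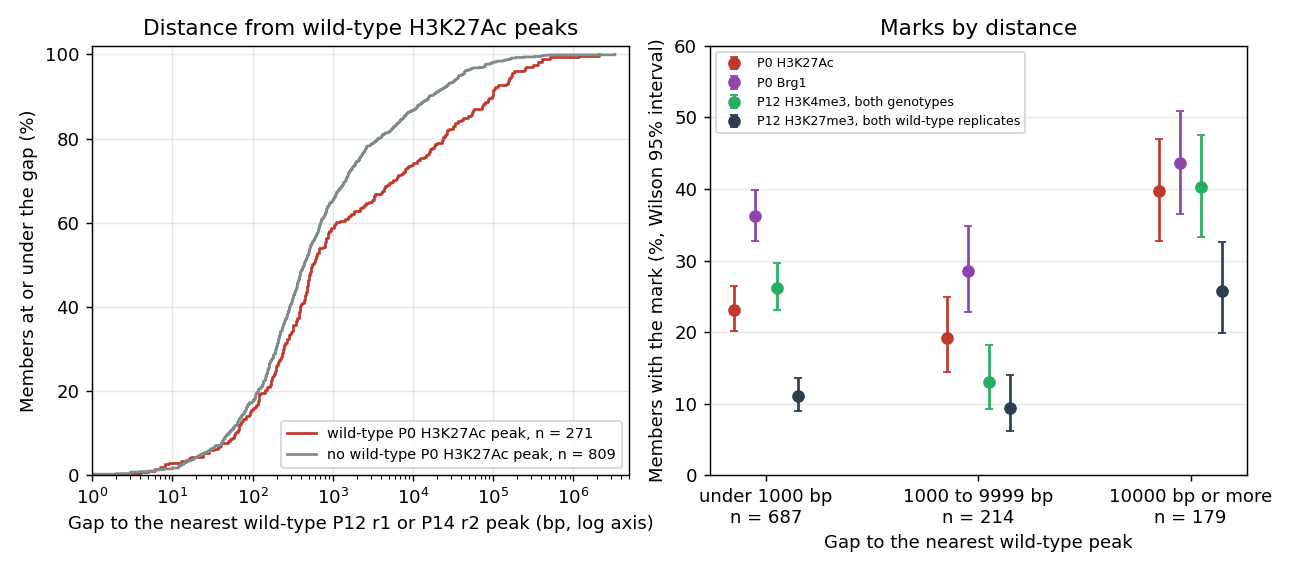
Left, cumulative share of deficient-only peaks (vertical, percent) by gap to the nearest wild-type P12 r1 or P14 r2 peak (horizontal, bp, log axis; gaps of 0 drawn at 1) for members with and without a wild-type P0 H3K27Ac peak. Right, share of members with each mark (percent, Wilson 95% intervals) in 3 ranges of that gap, where P0 H3K27Ac is at 23.1%, 19.2% and 39.7%.

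The 20 strongest deficient-only peaks, ranked by the lower of their 2 Brg1-deficient folds after scaling, mostly lacked a P0 peak. Their r2 fold ran from 5.54 to 9.27 and their r1 fold from 5.397 to 8.65. A P0 H3K27Ac peak lay under 4 of them, a Brg1 peak under 5, H3K4me3 in both genotypes under 8, an H3K27me3 domain of both wild-type P12 replicates under 2, and 10 lay under 1000 bp from a wild-type peak.

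The first in rank was chr5:145620969-145622438, 1470 bp long, with a fold of 9.27 in Brg1-deficient r2 and 7.53 in r1. It lay 997 bp from a wild-type peak and had no H3K27Ac, Brg1 or H3K4me3 peak in any other library shown in the plot of the strongest members. The second, chr9:103093358-103095342, was the widest of all members at 1985 bp, with folds of 7.57 and 8.39. It lay 8429 bp from the nearest wild-type peak and likewise had no peak in those other libraries. Together with 3 further members it formed a group on chromosome 9 between 103046449 and 103095342, none of which had P0 H3K27Ac or Brg1.

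The third, chr14:51589129-51590020, was 24052 bp from a wild-type peak and reached 7.62 in r2 and 7.04 in r1. It had a P0 H3K27Ac peak with a fold of 4.55 in P0 r2 and none in P0 r1, and no Brg1 or H3K4me3 peak. Ranks 4 and 8 were neighbours, chr8:37841846-37842513 (8.10 and 6.94) and chr8:37842941-37843709 (6.64 and 6.02). The second of this pair had a P21 r2 peak with a fold of 4.97 and a Brg1-deficient H3K4me3 peak with a fold of 5.69, with no wild-type P12 H3K4me3 call.

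The clearest P0 sites among the 20 were chr6:113810353-113811017 and chr11:118996218-118996556. The first had folds of 6.71 and 6.06 in the Brg1-deficient libraries, 3.84 and 2.99 at P0 and 3.83 for Brg1, and was 3267 bp from a wild-type peak. The second had 6.21 and 5.81, then 7.47 and 3.77 at P0 and 12.7 for Brg1, and was 174 bp from a wild-type peak. Neither had an H3K4me3 peak in the P12 libraries or a P14 r1 or P21 H3K27Ac peak. Both thus had Brg1 and acetylation peaks at birth, and no H3K27Ac peak in the later wild-type lists.

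Several of the strongest members sat in H3K4me3 peaks of both genotypes. At chr4:14753879-14754201 the H3K4me3 fold was 25.05 in Brg1-deficient and 48.2 in wild-type P12 retinae, and the member, with H3K27Ac folds of 6.40 and 5.62, was 138 bp from a wild-type H3K27Ac peak. At chr19:44371192-44371586 the H3K4me3 folds were 5.79 and 37.2. At chr12:47500673-47500949, the most isolated of the 20, at 418114 bp from a wild-type H3K27Ac peak, they were 12.9 and 20.1, and an H3K27me3 domain of both wild-type P12 replicates covered the site. These H3K4me3 folds are unscaled and come from single libraries.

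**Figure D5:**
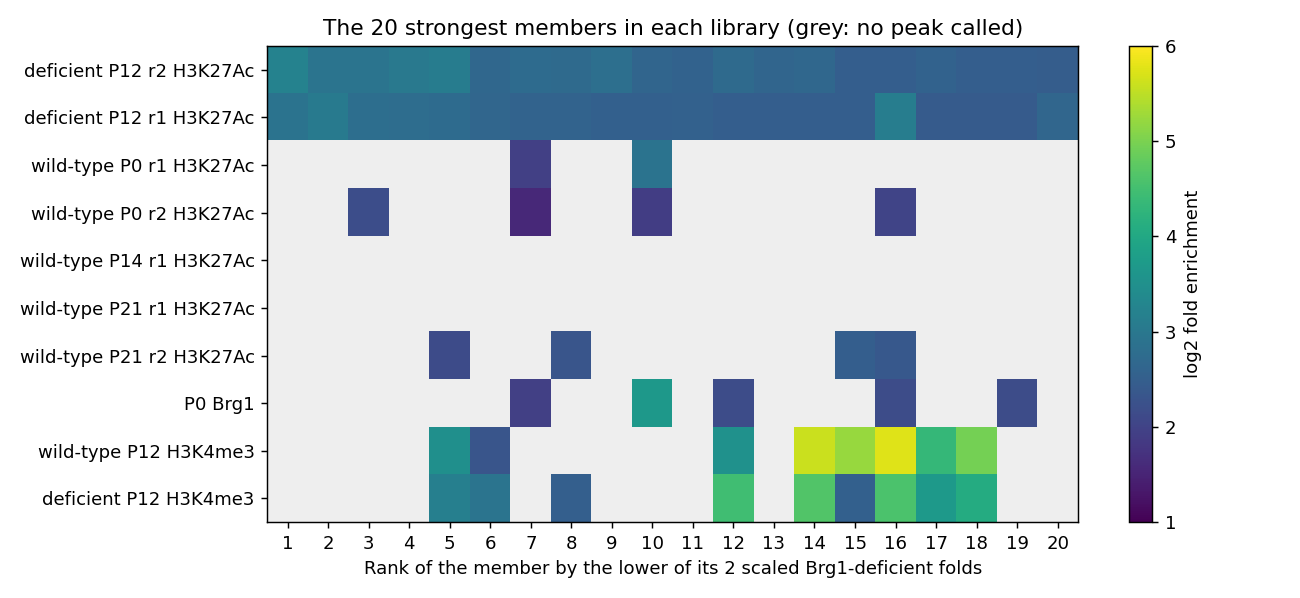
The 20 strongest deficient-only peaks in order of rank (horizontal) in each library (vertical), coloured by log2 fold enrichment and grey where no peak was called. The columns are filled in both Brg1-deficient rows by selection, 4 are filled in a P0 H3K27Ac row, 5 in the Brg1 row, and none in the P14 r1 and P21 r1 rows.

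Among the widest members, chr14:61893011-61894597 had 1587 bp, folds of 7.51 and 5.28 and a gap of 44974 bp to the nearest wild-type H3K27Ac peak. It had H3K4me3 in both genotypes, at 19.6 in Brg1-deficient and 11.4 in wild-type retinae, no P0 H3K27Ac or Brg1 peak, and an H3K27me3 domain of both wild-type P12 replicates. By contrast chr3:87309392-87310712, 1321 bp wide and 18216 bp from wild type, with folds of 5.15 and 5.77, had no P0 H3K27Ac, Brg1 or P12 H3K4me3 peak. Of the 10 widest members, 1 had P0 H3K27Ac.

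Most deficient-only peaks stood alone. With a limit of 50 kb between the starts of neighbouring members, 751 had no neighbour, 112 pairs were formed, and 30 groups of 3 or more held 105 members. The largest group had 6 members, at chr13:54343513-54474226, of which 4 had a P0 Brg1 peak and none P0 H3K27Ac. In chr6:100738928-100746506, 4 members lay within 7579 bp, each at least 36766 bp from a wild-type peak, with r2 folds of 3.78 to 5.42 and r1 folds of 5.17 to 6.50, and with none of P0 H3K27Ac, Brg1, H3K4me3 at P12 and H3K27me3 at P12. The groups at chr1:88112268-88115371 and chr2:71127235-71134678, with 4 members each, also had none of these marks.

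One group had the full set of marks. In chr2:105500794-105518032, all 4 members had P0 H3K27Ac, P0 Brg1, P12 H3K4me3 in at least 1 genotype, and an H3K27me3 domain in both genotypes at P12. The member chr2:105508669-105509003 had H3K27Ac folds of 4.54 and 4.28 in the Brg1-deficient libraries and 13.3 and 17.1 at P0, a Brg1 fold of 10.6, and an H3K4me3 fold that was 44.97 and 42.8 at P0, 7.51 in Brg1-deficient and 13.1 in wild-type retinae at P12. The P0 peaks were thus high, and the Brg1-deficient ones near the level of the median member. Wild-type acetylation was not confined to P0 there: this member had a wild-type P21 r2 H3K27Ac peak with a fold of 2.92. In all, 2 of the 4 members had a peak in wild-type P14 r1 or P21. The 4 members lay 412 to 876 bp from a wild-type peak, and 3 of them shared 1 P0 r2 peak, so they are not independent. A second group of this kind, chr5:115635728-115655420, had 3 members with P0 H3K27Ac, P0 Brg1, P12 H3K4me3 in at least 1 genotype and P12 H3K27me3. At chr5:115654890-115655420 and chr5:115636402-115636684 the P12 H3K4me3 peak was called in wild type alone. Of these 3, 2 also had an H3K27Ac peak in wild-type P14 r1 or P21.

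By chromosome the share of r2 peaks that were deficient-only ran from 1.56% on chromosome 17 to 3.50% on chromosome 13, leaving aside Y, where 2 of 4 r2 peaks were members.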

How the data were processed

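Peak lists of 27 libraries were used. The submitters' processing notes name CASAVA, BWA 0.5.9-r26, Picard 1.65, SAMtools, MACS2 2.0.9, bedtools 2.17.0, SICER 1.1, R 2.14.0 and build mm9. The authors deposited 1 list per library. For H3K27Ac, H3K4me3 and Brg1 the deposited values were the fold enrichment ratio of each peak, its −log10 p and q, a score of 10 times −log10 q, and the summit position. The H3K27me3 domains were deposited with a score whose meaning is not given in the sources used here, and their positions were used, with the score only to rank domains in 1 alternative. No list gives read counts, so whether a weak peak missing from a list reflects depth was not tested. The selection of 4 lists, the loci and the tests were chosen with earlier results of these data known.

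A peak was counted as overlapping at 1 bp or more. Overlap code was tested on simulated data, and its counts equalled those of bedtools 2.31.1 in all 27 libraries. Shares have Wilson 95% intervals (scipy 1.17.1). For P0 against P21, the P0 and P21 peaks were merged, the highest fold per library was scaled to equal medians over regions with a peak in all 4 libraries, and log2(fold + 2.75) was fitted in limma 3.58.1 (R 4.3.3) without a replicate block, with Benjamini-Hochberg adjustment. The pseudocount was the 5th percentile of called heights. On simulated P0 and P21 heights of 54774 regions with 200 changed, 200 were recovered with 14 false calls. Each simulated region had a height in every library, and the changed ones were drawn from regions with a peak in all 4 libraries. The simulation thus does not cover regions with a height entered as 0, such as the member regions named above. The labels do not say that replicates came from separate animals, so p-values measure only the spread between these libraries. Named loci were the 20 members with the highest lower scaled fold, the 10 widest, groups of neighbours, and members in regions with the smallest limma p. The last 2 kinds were chosen after their values were seen. Gene names and sequences were not used here, since the reference tables at hand are of another build.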

Additional observations from a re-analysis of the deposited data

How the results depend on the processing

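Of 76 values recomputed under alternatives, 35 stayed within 1.5 times the main count or inside the main Wilson interval, and 41 moved. An overlap of at least 50% of the smaller peak gave 32.7% with Brg1. Without Brg1-deficient replicate 1 or replicate 2 in the selection, the members numbered 5288 and 4494, the P0 H3K27Ac share was 12.4% and 20.1%, the Brg1 share 22.4% and 30.8%, the H3K4me3 share 13.7% and 16.2%, and the H3K27me3 share 8.36% and 11.6%. At least 1000 bp from a wild-type peak, 393 members remained, 28.5% with P0 H3K27Ac and 16.8% in H3K27me3. With the strongest 50% of peaks of each mark the shares were 11.9% for P0 H3K27Ac, 26.2% for Brg1, 9.44% for H3K4me3 and 11.02% for H3K27me3. The P0 share was 24.6% by P0 r2 alone, 9.07% by P0 r1 alone and 8.61% by both. The H3K27me3 share was 14.1% by replicate 2 alone and 16.2% by replicate 1 alone. Alternatives added after seeing the data were a requirement that the r1 peak also be free of wild-type peaks, which moved no value, and leaving out a wild-type list. Without P14 r2 and without P12 r1 the members numbered 3692 and 1936, with P0 H3K27Ac at 37.6% and 21.8%, Brg1 at 45.2% and 32.7%, H3K4me3 at 41.5% and 23.5%, and H3K27me3 at 21.9% and 9.87%. Under each alternative run, fewer than 40% had P0 H3K27Ac.

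In the P0 against P21 comparison, 7899 regions were called and 58 members lay in one higher at P0. In all member counts of this comparison, a member was counted once for each region it overlapped. The replicate block gave 8587 regions and 69 members, but same-numbered libraries did not deviate together (r = −0.02 over 6884 regions), so the numbers do not pair. Testing all regions left 0 called (9211 at an unadjusted p under 0.05 by limma) and 0 members (79 unadjusted). Regions with a peak in all 4 libraries gave 291 and 1. Leaving out 1 library gave 0 to 8776 regions and 0 to 128 members. With no scaling, 8423 regions were called and the median of all regions moved from −0.04 to 0.12. The cause of these changes was not tested.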
